A study of Mus musculus with 3 samples.

Results

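The immunoglobulin genes of regulatory T cell RNA are described here, across 3 libraries of mouse cells. Members were all genes annotated by GENCODE M21 as immunoglobulin constant (C), variable (V), joining (J) or diversity (D) genes with 10 or more reads summed over the libraries. By this rule 110 of the 264 annotated immunoglobulin genes were members, out of 55536 gene identifiers in all. The summed reads chose the members, so that a member has reads at all is not a finding. Of the other 154 genes, 84 had 0 reads and 70 had reads below the threshold. Just inside it were Igkv5-39 with 10 summed reads, Igkv1-135 with 10.06 and Ighv5-16 with 11. Just outside were Igkv6-17 with 9.89, Ighv1-47 with 9 and Igkv3-4 with 8.35.

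The libraries hold polyadenylated RNA of activated regulatory T cells, a CD4 T cell lineage marked by Foxp3 that holds immune responses in check. The cells were primary, from mice labelled male and aged 3 weeks, with no genotype, strain or treatment beyond "activated" given. By their labels, the libraries are technical replicates, numbered 1 to 3, of a single biological replicate, and are called library 1, 2 and 3 here. All 3 form 1 group, so nothing compares conditions, and every SD is the spread between these 3 libraries. How the cells were isolated and where the replicates parted is not given in the sources used here.

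An antibody joins 2 heavy chains to 2 light chains, and the light chains are either kappa or lambda. In each developing B cell a V segment is joined to a J segment, with a D segment between them in the heavy chain, so that a clone of B cells carries its own V segments. The heavy constant gene sets the class. IgM and IgD come from unswitched cells, and IgG, IgE and IgA follow class switching. A B cell makes a membrane form as its receptor, and a plasma cell, its antibody-secreting descendant, makes mostly the secreted form of the same heavy chain. T cells assemble T cell receptor genes from separate Trav, Trbv and related segments instead.

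The forms of Ighm, the IgM heavy chain gene, differ at their 3′ end, and the alternative ends are shown because the transcript shares below turn on them. The secreted tail is the coding stretch that only Ighm-201 holds (chr12:113420870-113420928, minus strand, mm10), with its cysteine codon in capitals. The membrane exon is the first of the exons that only Ighm-202 holds (chr12:113418953-113419068, minus strand), with nothing in capitals. Both are written 5′ to 3′ from the GENCODE M21 transcripts.
Ighm secreted tail: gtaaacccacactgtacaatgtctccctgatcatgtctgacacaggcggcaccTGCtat
Ighm membrane exon: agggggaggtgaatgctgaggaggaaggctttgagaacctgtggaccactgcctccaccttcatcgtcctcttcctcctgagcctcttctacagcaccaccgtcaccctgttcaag

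The next sequences are the last 60 coding bases of V segments, where joining takes place. The capitals mark the last in-frame cysteine codon, which ends the framework before the antigen-binding loop that joining creates. The kappa segments shown are a pair counted evenly in the libraries (Igkv10-96 and Igkv10-94), a segment found almost wholly in library 1 (Igkv3-2), in library 2 (Igkv15-103) or in library 3 (Igkv2-137), and a similar pair that parted between libraries (Igkv1-117 and Igkv1-110). The heavy segments are counted mainly in library 1 (Ighv1-9), library 2 (Ighv7-1) and library 3 (Ighv1-22).
Igkv10-96: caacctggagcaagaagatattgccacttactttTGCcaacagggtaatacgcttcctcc
Igkv10-94: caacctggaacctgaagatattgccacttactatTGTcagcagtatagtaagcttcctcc
Igkv3-2: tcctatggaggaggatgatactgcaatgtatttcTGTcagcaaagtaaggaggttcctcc
Igkv15-103: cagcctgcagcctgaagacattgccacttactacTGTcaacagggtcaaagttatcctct
Igkv2-137: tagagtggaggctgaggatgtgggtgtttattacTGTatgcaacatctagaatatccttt
Igkv1-117: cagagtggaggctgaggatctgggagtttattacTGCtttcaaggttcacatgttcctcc
Igkv1-110: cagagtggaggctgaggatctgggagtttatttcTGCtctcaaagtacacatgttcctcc
Ighv1-9: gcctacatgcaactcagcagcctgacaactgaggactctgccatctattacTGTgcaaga
Ighv7-1: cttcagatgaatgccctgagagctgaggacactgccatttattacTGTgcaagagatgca
Ighv1-22: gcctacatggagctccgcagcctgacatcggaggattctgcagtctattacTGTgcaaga

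In all 7 kappa segments printed, 23 coding bases follow the cysteine codon. After it come 6 bases in Ighv1-9 and Ighv1-22 and 12 bases in Ighv7-1. The transcripts of Igkv10-96 and Igkv10-94 are identical at 95.4% of 347 aligned bases, and those of Igkv1-110 and Igkv1-117 at 97.5% of 401. Similar segments share reads, which the authors' estimates divide between them. The most similar other segment of its locus had a median identity of 94.7% for the 48 heavy V members and 95.2% for the 45 kappa V members. Values of a single V segment are therefore less certain than sums.

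Libraries 1, 2 and 3 had 30362256, 28419259 and 31959927 gene reads. All 7 regulatory T cell markers were detected at 1 TPM or more in each library (TPM is transcript abundance scaled for length and to a fixed total). Their summed level was 2599, 2734 and 2399 TPM. Library 1 stood apart in red cell RNA: the 5 erythroid markers, all detected, summed to 9649 TPM there, against 820 in library 2 and 568 in library 3. Summed levels of the 6 monocyte and macrophage markers were 125.8, 67.2 and 79.5 TPM, with 5 of 6 detected. Dendritic cell markers summed to 6.83, 3.08 and 3.17 TPM and neutrophil markers to 10.6, 0.850 and 1.04 TPM. In either list 0 of 6 reached 1 TPM in all 3 libraries, and Elane had 0 reads. In library 1 alone, S100a9 stood at 6.26 TPM, S100a8 at 3.26, Zbtb46 at 3.08, Itgax at 2.12 and Xcr1 at 1.38. The others of these lists were below 1 TPM there. In bulk RNA, fewer cells of a type and less RNA per cell cannot be told apart.

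As a share of gene reads, the total of immunoglobulin RNA differed little between the 3 libraries. Members took 782 CPM (reads per 1000000 gene reads) in library 1, 794 in library 2 and 758 in library 3 (mean 778 ± 18.3, SD, n = 3). The exact binomial 95% intervals, which cover counting error only, were 772 to 792, 784 to 805 and 749 to 768, so libraries 2 and 3 differed by more than counting error. Heavy chain members made up 506 ± 13.1 CPM, kappa members 252 ± 13.1 and lambda members 19.7 ± 2.27. Kappa members were highest in library 2, at 267 CPM, against 245 and 244 in libraries 1 and 3. In TPM the sums were less even. Heavy constant genes summed to 576, 587 and 481 TPM and kappa to 579, 639 and 510, both lowest in library 3. Lambda constant genes summed to 42.2, 56.2 and 50.1 TPM, lowest in library 1.

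Kappa dominated the light chains. Of light chain reads, 93.5% were kappa in library 1, 92.6% in library 2 and 92.3% in library 3 (92.8 ± 0.607%). In constant genes alone the kappa share was 93.0 ± 1.01%, and in V segments alone it was 92.2 ± 0.531%. In library 1 the constant share of 94.1% was above the variable share of 91.9%, with intervals that do not overlap. It was 92.8% against 91.9% in library 2 and 92.1% against 92.8% in library 3, where the intervals overlap.

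The makeup behind these totals, which were steady as shares of reads, differed strongly. A chi-square test of each gene's rounded expected counts against scaled library sizes (2 degrees of freedom, Benjamini-Hochberg adjustment over the 17190 genes averaging at least 10 reads) called 86 of the 91 members tested. Of all genes tested it called 80.0%, so a call alone says little. The test compares these libraries, not conditions. A member that passed the filter through 1 high library had to differ, so these counts describe the members and support nothing further. The 5 members not called were Igkv10-96, Igkv10-94, Igkv4-92, Iglc3 and Iglv1.

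The size of the differences was described next. Ratios of the highest to the lowest library were taken from CPM + 0.5, not as logs, with TMM-scaled library sizes. The median ratio was 4.83 over the 91 members and 1.41 over all genes tested. With 3 reads per library as the floor, the medians were 17.5 and 1.49. The ratio of members rests on the pseudocount: with 0.1 in place of 0.5 it was 16.8. In 39 of the 91 members, 90% or more of scaled reads came from 1 library, against 1.31% of all genes tested. Among genes averaging 10 to 100 reads, it was 37 of 73 members and 3.57% of all. The test called 70 of those 73 members and 63.3% of all genes in that range.

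The direction was spread over the libraries. Library 1 was highest for 31 members, library 2 for 40 and library 3 for 20. Over all genes tested, the shares highest in library 1, 2 and 3 were 31.6%, 29.3% and 39.1%. No library was therefore highest for most members.

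**Figure D1:**
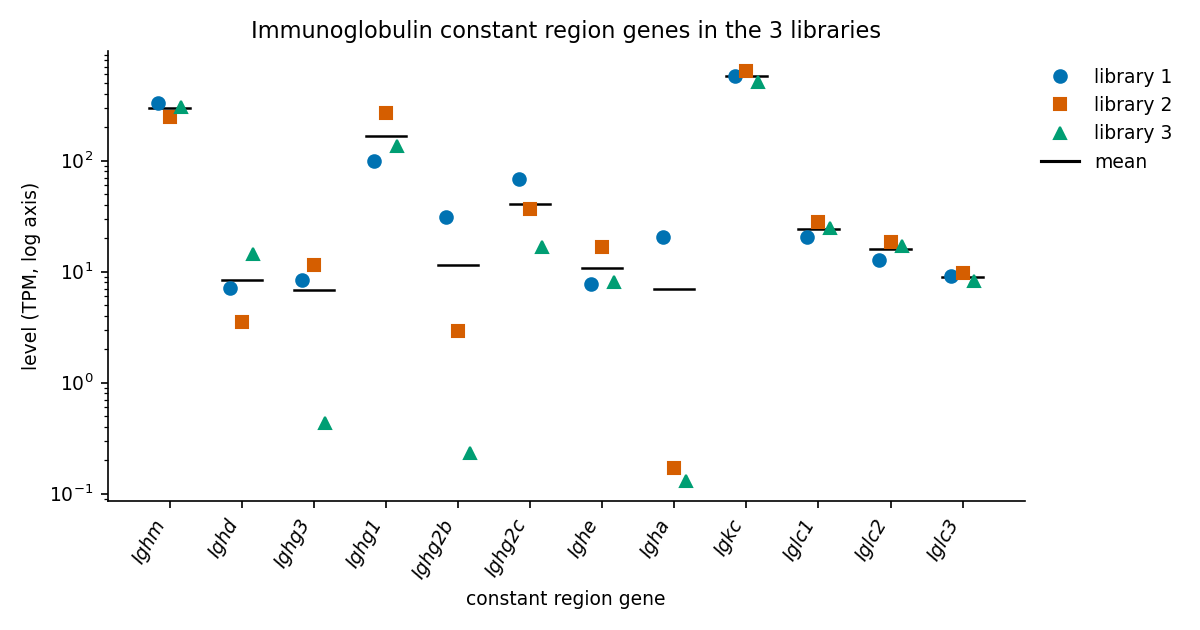
Level of the 12 constant region members in TPM on a log axis, with 1 point per library and a bar at the mean of the 3. Igkc and Ighm are highest by mean and each lies close together in the 3 libraries, while Igha, Ighg2b and Ighg3 span more than a factor of 10. In library 2 Ighg1, at 271 TPM, lies above Ighm, at 245.

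Constant genes carry the class and most of the reads. All 8 annotated heavy constant genes, the kappa constant gene and 3 of the 4 lambda constant genes were members. By mean level the order was Igkc (576 ± 64.7 TPM), Ighm (295 ± 45.4), Ighg1 (168 ± 90.8), Ighg2c (40.6 ± 26.3), Iglc1 (24.4 ± 3.91), Iglc2 (16.1 ± 2.94), Ighg2b (11.4 ± 17.0), Ighe (10.85 ± 5.03), Iglc3 (8.95 ± 0.750), Ighd (8.36 ± 5.53), Igha (6.99 ± 11.8) and Ighg3 (6.77 ± 5.72). Of neighbours in this order, the ranges over libraries did not overlap for Igkc and Ighm, Ighg1 and Ighg2c, and Iglc1 and Iglc2. The other neighbours overlapped, Ighm and Ighg1 among them. In TPM Igkc was above Ighm in each library, while in reads Ighm was above Igkc in each.

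Ighm (ENSMUSG00000076617.9, chr12:113418558-113422730, minus strand), which encodes the mu chain of IgM, had 333 TPM in library 1, 245 in library 2 and 307 in library 3. In reads these were 9591, 6676 and 10536. Library 2 was lowest on both scales. By scaled reads library 3 was highest, and per length and total library 1 was highest, so the order of those libraries depends on the scale. Ighm was called (adjusted p = 2.65e-105, chi-square test across all genes), but without library 2 it was not (adjusted p = 0.189).

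Ighd (chr12:113406604-113416324), the delta chain of IgD that is spliced from the same long transcript as Ighm, had 7.12, 3.55 and 14.4 TPM. Its reads were 219, 99 and 524, highest in library 3. The ratio of Ighm to Ighd, as log2 of (TPM + 1) values, was 5.36, 5.76 and 4.32 (mean 5.15 ± 0.741).

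Ighg1 (chr12:113325240-113330523), the heavy chain of IgG1, had the largest chi-square of all members, at 1701. It stood at 99.5 TPM in library 1, 271 in library 2 and 134 in library 3, from 1955, 4931 and 3088 reads. Library 2 was highest and exceeded the lowest by a factor of 2.71. Ighe (chr12:113269260-113273248), the heavy chain of IgE, was also highest in library 2, with 7.81, 16.7 and 8.08 TPM.

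Library 1 was highest for the other switched classes named next. Ighg2c (chr12:113285325-113288932), the IgG2c chain, had 68.7, 36.5 and 16.6 TPM. Ighg2b (chr12:113302965-113307933), the IgG2b chain, had 627, 57.2 and 5.35 reads, or 30.9, 2.91 and 0.230 TPM. Igha (chr12:113254830-113260236), the IgA chain, had 412 reads in library 1, 5 in library 2 and 7 in library 3. For Igha, 97.2% of scaled reads lay in library 1. Ighg2b and Ighg2c transcripts without membrane exons are identical at 86.4% of 1111 aligned bases, so their reads can be divided wrongly. The IgG3 gene Ighg3 (chr12:113356224-113361232) differed from these: it had 168 and 210 reads in libraries 1 and 2 and 10 in library 3.

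**Figure D2:**
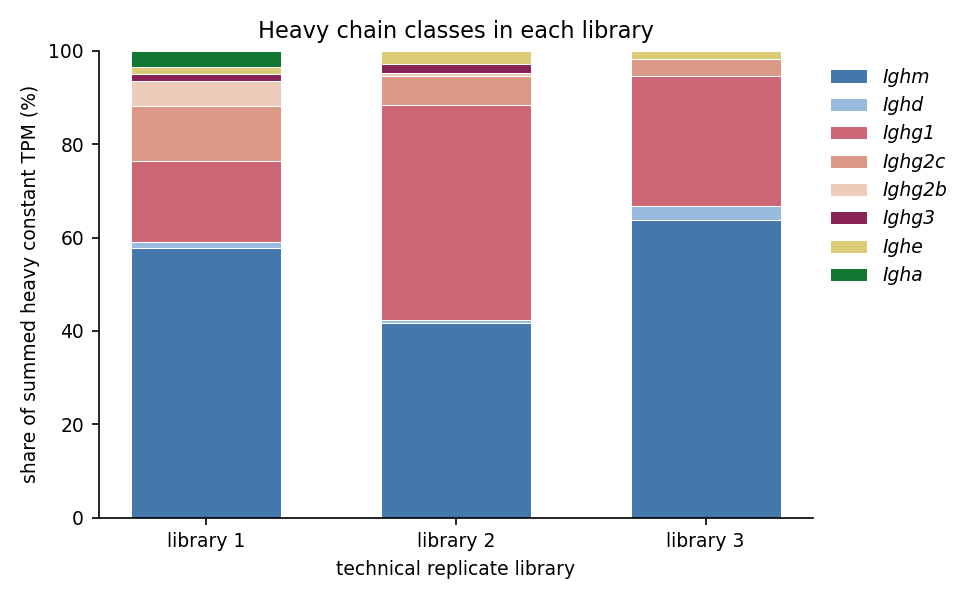
Share of the summed TPM of the 8 heavy constant genes taken by each gene, in percent, with 1 stacked bar per library. Ighm takes 57.8%, 41.7% and 63.8% in libraries 1, 2 and 3, and Ighg1 is the largest by TPM in library 2 at 46.2%, where by reads Ighm is larger (51.2% against 37.8%).

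As shares of the summed heavy constant TPM, Ighm took 57.8% in library 1, 41.7% in library 2 and 63.8% in library 3. Ighg1 took 17.3%, 46.2% and 27.9%. The switched classes together made 40.9%, 57.7% and 33.2%. Igha made 3.58% in library 1 and at most 0.0289% in the others. By TPM, Ighm was first in libraries 1 and 3 and Ighg1 in library 2. By reads, not divided by length, Ighm was first in library 2 too, with 51.2% of heavy constant reads against 37.8% for Ighg1.

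Transcript estimates separate the secreted from the membrane form by the sequences above. For Ighm, the transcript without membrane exons held 64.8% of the gene's TPM in library 1, 48.6% in library 2 and 52.1% in library 3 (55.2 ± 8.53%). Its level was 216, 119 and 160 TPM, beside 117, 126 and 147 TPM for the membrane form. The secreted form ranged more widely between libraries than the membrane form. Ighd was mainly in the form with membrane exons, at 86.4%, 82.8% and 87.8% of its TPM.

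The switched genes were almost wholly in the form without membrane exons. It held 99.5 ± 0.0929% of Ighg1, 99.9 ± 0.244% of Ighg2c and 97.9 ± 2.26% of Ighe. All 412 Igha reads of library 1 were assigned to the form without membrane exons. In libraries 2 and 3 Igha had too few reads to divide. Transcript estimates divide reads that the forms share.

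Igkc (ENSMUSG00000076609.2, chr6:70726435-70726966, plus strand), the only kappa constant gene, was the most even of the 3 members with most reads. It had 5309 reads in library 1, 5430 in library 2 and 5479 in library 3, or 579, 639 and 510 TPM. Library 2 was highest by scaled reads, by a factor of 1.13. That difference passed the test (adjusted p = 5.0e-10, chi-square test across all genes).

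Of the lambda constant genes, Iglc1 (chr16:19061618-19062071) had 156, 200 and 225 reads, Iglc2 (chr16:19198396-19200351) 108, 152 and 172, and Iglc3 (chr16:19065230-19065681) 69.2, 68.3 and 73.1. Iglc1 and Iglc2 were lowest in library 1 and were called. Without library 1 neither was called (adjusted p = 0.861 and 0.913, chi-square test across all genes). Iglc3 did not pass (adjusted p = 0.930, chi-square test). Iglc2 and Iglc3 are identical at 95.4% of 452 aligned bases and share reads. In log2 of (TPM + 1), Igkc exceeded Iglc2 by 5.39, 5.04 and 4.83 in the 3 libraries.

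**Figure D3:**
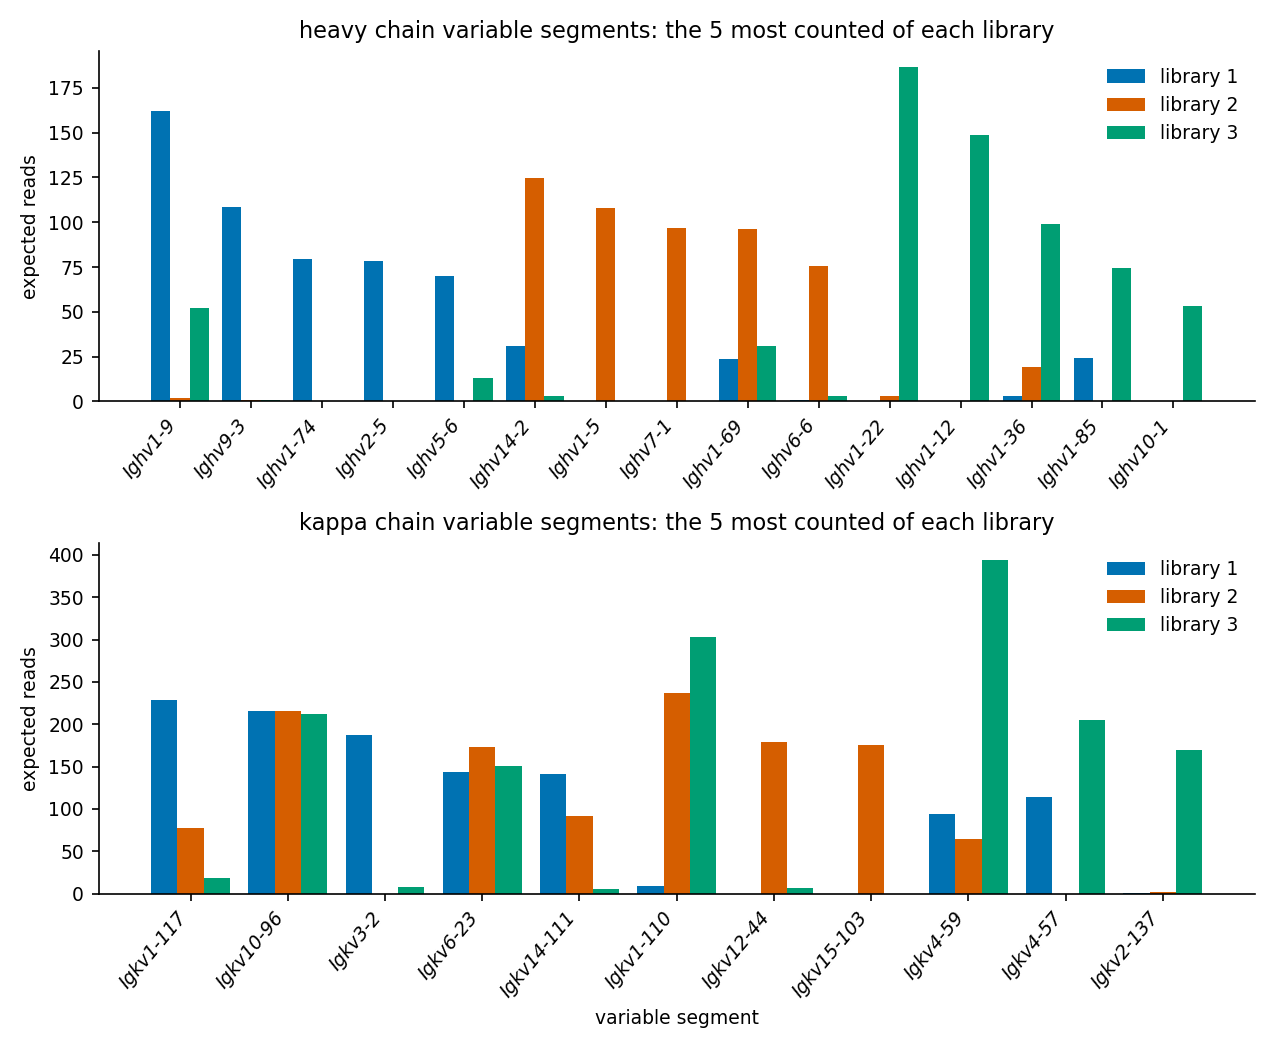
Expected reads, on linear axes, of the heavy (upper panel) and kappa (lower panel) V segments that are among the 5 most counted of any library, with 1 bar per library. No heavy segment is among the 5 most counted of more than 1 library, and Igkv10-96 is near 215 reads in all 3.

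Sums over V segments were followed by their members. Heavy V members summed to 1223, 1298 and 964 reads, or 40.3, 45.7 and 30.2 CPM, lowest in library 3 with intervals that do not overlap. Kappa V members summed to 2121, 2163 and 2327 reads, or 69.9, 76.1 and 72.8 CPM. The heavy segments behind these sums were largely different ones. The most counted were Ighv1-9 in library 1 with 162 reads, Ighv14-2 in library 2 with 124.5 and Ighv1-22 in library 3 with 186.4. None of the 15 heavy segments that made the 5 most counted of a library did so in more than 1 library.

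By summed reads the 5 leading heavy V members were Ighv1-9, Ighv1-22, Ighv14-2, Ighv1-69 and Ighv1-12. Ighv1-9 had 162, 2 and 52 reads in libraries 1, 2 and 3. Ighv1-22 had 0, 3.03 and 186. Ighv14-2 had 30.7, 124.5 and 3.14, and Ighv1-69 had 23.7, 96.0 and 30.7. Ighv1-12 had 148.7 reads in library 3 and 0 in both others. That is at least 46.7-fold above library 1, taken at its floor of 3 reads. Each of the 5 was highest by far in a single library, and the libraries differed from segment to segment.

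Sharing of segments was counted over all annotated V genes, which does not use the summed reads. Of 113 heavy V genes, 24, 23 and 17 had 10 or more reads in libraries 1, 2 and 3. Only 3 reached 10 reads in all 3 libraries, which is 12.5%, 13% and 17.6% of those lists, and 29 did so in 1 library only. This sharing was not counted over all genes, so how unusual it is, for heavy or kappa segments, cannot be judged. The shared ones were Ighv1-69, Ighv1-81 and Ighv14-4. Reads on segments that reached 10 reads in that library only made 40.9%, 55.1% and 48.0% of all heavy V reads. Such segments can have fewer reads in the other libraries.

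For kappa, 19, 22 and 22 of 102 V genes had 10 or more reads, 5 of them in all 3 libraries and 28 in 1 only. The 5 shared segments were Igkv10-96, Igkv10-94, Igkv6-23, Igkv4-59 and Igkv1-117. They are 26.3%, 22.7% and 22.7% of the lists. Segments that reached 10 reads in that library only took 30.4%, 38.0% and 22.7% of kappa V reads.

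T cell receptor segments, counted in the same way, were mostly shared. Of 108 Trav genes, 92, 96 and 101 had 10 or more reads and 89 had them in all 3 libraries. All 21 Trbv genes with 10 or more reads had them in every library. These genes had more reads, 7400 to 11269 per library for Trav and 11469 to 19180 for Trbv, so 10 reads is a lower bar for them. In Trav, 2 of 101 tested segments had 90% or more of scaled reads in 1 library, in Trbv 0 of 21, and in immunoglobulin V members 37 of 79. The difference between the kinds of segment was not tested.

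**Figure D4:**
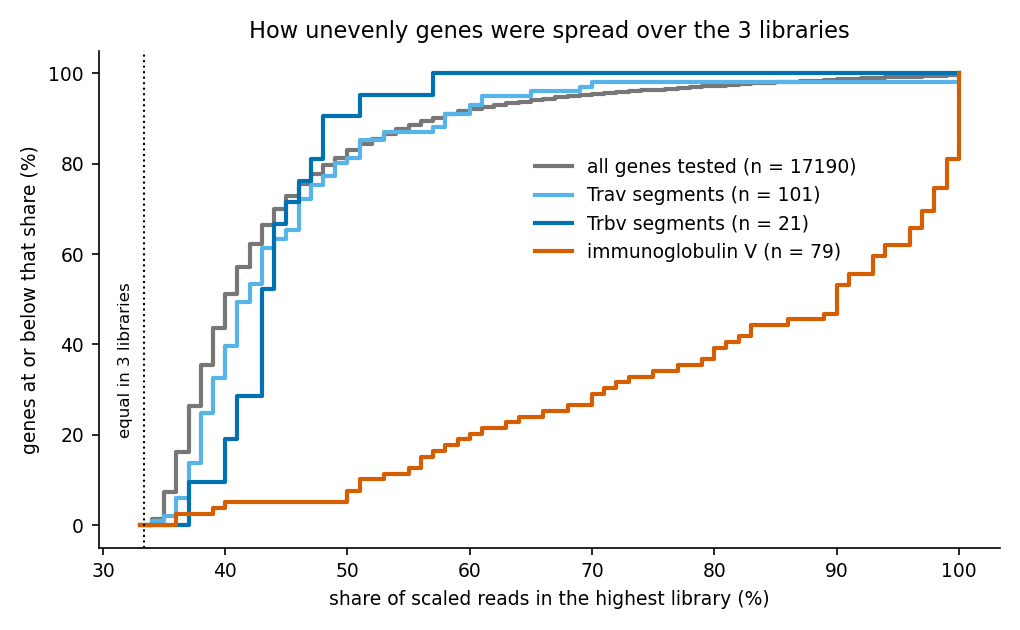
Cumulative percentage of genes (vertical axis) whose highest library holds at most a given share of their scaled reads (horizontal axis, percent), for genes averaging at least 10 reads. At a share of 50% the curve stands at 7.59% of immunoglobulin V segments, against 81.2% of Trav segments, 90.5% of Trbv segments and 82.9% of all genes tested.

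Among the members with the largest chi-square, the V segments were Igkv15-103, Igkv12-44 and Igkv3-2. Igkv15-103 had 175 reads in library 2 and 0 in libraries 1 and 3. That is at least 66.6-fold above library 3, taken at its floor of 3 reads. Igkv12-44 had 178.6 reads in library 2, 6 in library 3 and 0 in library 1. Igkv3-2 had 186.9 reads in library 1, 0 in library 2 and 7.35 in library 3. Igkv2-137, printed above for library 3, had 1, 2 and 169 reads. The sequences of Igkv15-103 and Igkv3-2 are identical at 65.2% of aligned bases.

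A few kappa segments varied little between libraries or were not called. Igkv10-96 (chr6:68631963-68632442, minus strand), the kappa V member with most summed reads, had 215.2 reads in library 1, 215.5 in library 2 and 212.3 in library 3 (adjusted p = 0.349, chi-square test). Igkv10-94 had 73.8, 80.5 and 71.7 reads (adjusted p = 0.319, chi-square test). Igkv6-23 had 143.5, 173.1 and 150.1 reads and was called by a small margin (adjusted p = 0.0278, chi-square test). Igkv4-92 had 8, 7 and 16 reads (adjusted p = 0.196), too few to show any but a large difference. Of these, Igkv10-96 and Igkv10-94 were the evenly counted ones.

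The other leading kappa segments did move. Igkv4-59 had 94.2, 64.8 and 394.6 reads, highest in library 3. Igkv1-110 had 9.43, 237 and 303.6, and its close relative Igkv1-117 had 228, 77.6 and 18.2, in the reverse order. Summed over the 4 members of the Igkv1 family, the reads were 370.0, 315.0 and 358.2, which is 17.4%, 14.6% and 15.4% of kappa V reads. The family total was thus far more even than its segments, which share reads. For Igkv1-117 and Igkv1-110 the authors' posterior SD reached 0.907 and 0.519 of the square root of the count in libraries with 10 or more reads, so division between relatives adds error of the order of counting error.

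By families, Ighv1 took the largest share of heavy V reads: 47.2% in library 1, 47.9% in library 2 and 73.9% in library 3, from 24 members of 53 annotated genes. Ighv5 had 142.7, 0 and 35.7 reads, Ighv7 had 0, 142 and 1, and Ighv14 had 74.0, 219.6 and 24.0. In kappa, Igkv4 was the largest family in libraries 1 and 3, with 18.6% and 31.4% of V reads, and took 10.9% in library 2. The Igkv17 pair, Igkv17-121 and Igkv17-127, had 12, 254 and 279.8 reads together. The totals of Ighv5, Ighv7 and Ighv14 therefore differed between libraries as segments did. Ighv1 was more even in reads than in share, at 577.81, 620.93 and 712.25. Some kappa families differed widely too, such as Igkv12 with 6, 236 and 6 reads and Igkv5 with 155, 7 and 13. Igkv10 was even, with 289, 296 and 284.

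Position within the locus was also described. Of the heavy V genes, the 38 nearest to Ighm took 41.1%, 29.9% and 11.3% of heavy V reads, and the next 38 took 22.5%, 38.1% and 61.6%. Of the kappa V genes, 38 are on the plus strand and 64 on the minus strand. The 15 plus-strand members took 38.6%, 44.7% and 38.7% of kappa V reads. In the kappa locus a segment's strand decides whether joining deletes or inverts the DNA between V and J. By position, the 34 kappa V genes nearest to Igkc took 30.5%, 18.7% and 12.6% of kappa V reads.

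The lambda locus has 3 V genes, and all were members. Iglv1 had 131.2, 132.8 and 160.9 reads (adjusted p = 0.499, chi-square test), Iglv2 had 55.8, 42.2 and 12.1, and Iglv3 had 0, 16 and 7. Iglv1 and Iglv2 are identical at 96.7% of 366 aligned bases. Of the lambda V members tested, only Iglv2 was called, and without library 3 it was not (adjusted p = 0.372, chi-square test). Iglv3 had too few reads to be tested.

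V reads were most concentrated in library 3. Each library's own 5 most counted segments held 40.7%, 38.6% and 58.3% of heavy V reads and 43.1%, 45.3% and 55.2% of kappa V reads. The 5 heavy V members with most reads summed over the libraries held 17.7%, 17.4% and 43.7% of heavy V reads in libraries 1, 2 and 3, and the 5 leading kappa members held 32.6%, 35.5% and 46.4% of kappa V reads. Both sets were chosen by the same reads, so this is a description, and of the pooled heavy set Ighv1-22 and Ighv1-12 lie almost wholly in library 3. Set against constant genes, V segments summed to 36.7%, 41.6% and 29.96% of the constant TPM in the heavy locus and to 61.3%, 61.3% and 63.1% in the kappa locus. The kappa ratio was the steadier of these.

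J and D segments are short and were hardly counted. Ighj1 and Ighj4 were the 2 members of the 14 annotated J genes, and none of the 19 D genes had a read. They are shown because their length limits what can be measured: with 53 and 54 bases, the deposited effective lengths were 4 and 5 bases, so only reads are given. The capitals mark the start of the tryptophan-glycine motif that these heavy chain J segments carry.
Ighj1: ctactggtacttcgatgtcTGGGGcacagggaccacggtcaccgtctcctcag
Ighj4: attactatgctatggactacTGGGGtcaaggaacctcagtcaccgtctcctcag

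Ighj1 (chr12:113429781-113429833, minus strand) had 3 reads in library 1, 12 in library 2 and 4 in library 3. Ighj4 (chr12:113428514-113428567, minus strand) had 1, 11 and 3. Both were highest in library 2, at counts too low for the test. For a gene of 0 reads, up to 3 reads per library are allowed by counting error.

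**Figure D5:**
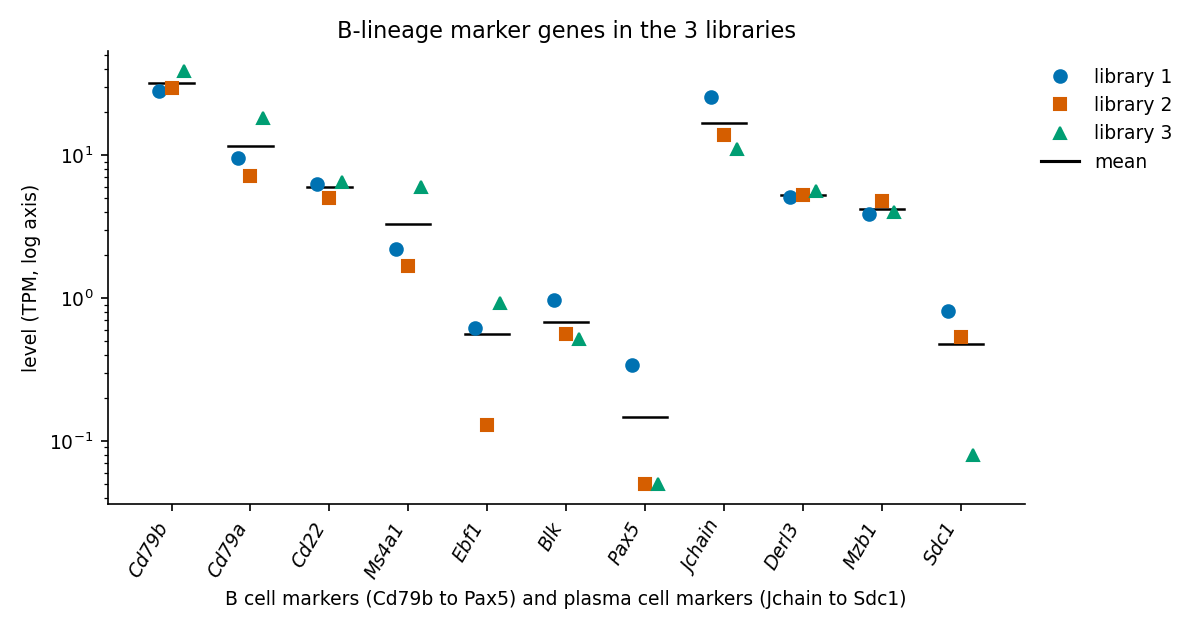
Level of B cell markers (Cd79b to Pax5) and plasma cell markers (Jchain to Sdc1) in TPM on a log axis, with 1 point per library and a bar at the mean. Library 3 is highest for the 5 leftmost markers, by little for Cd22, and library 1 is highest for Jchain and Sdc1.

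B-lineage genes were present, most of them at low levels. Of 8 B cell markers 5 were detected, none was at 0 reads, and their summed level was 50.9, 45.9 and 75.6 TPM. Library 3 was highest for 6 of them and library 1 for 2, with all 8 called. Of all genes tested, 80.0% were called and 39.1% were highest in library 3. Cd79b, a signalling chain of the B cell receptor, had 28.3, 29.6 and 38.6 TPM. Its partner Cd79a had 9.51, 7.18 and 18.1 TPM. Ms4a1, which encodes CD20, had 2.19, 1.67 and 5.98 TPM. Pax5, the B cell regulator, stood at 0.340, 0.05 and 0.05 TPM. Ighd, with 7.12, 3.55 and 14.4 TPM, had its libraries in the same order as Cd79a and Ms4a1. Other markers had other orders: Cd79b was lowest in library 1, and Pax5 and Blk were highest there.

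The plasma cell markers had no common order. Their summed level of 35.3, 24.5 and 21.1 TPM was mostly Jchain, with 3 of 5 detected and none at 0 reads. Jchain, the joining chain of secreted IgM and IgA, had 25.5, 13.9 and 11.1 TPM, and Sdc1, which encodes CD138, had 0.810, 0.530 and 0.0800. Both were highest in library 1, as were Igha and the secreted form of Ighm. The other 3 markers were not: Derl3, a secretory pathway gene, had 5.07, 5.23 and 5.60 TPM, Mzb1, also of that pathway, 3.90, 4.74 and 4.03, and Tnfrsf17, which encodes BCMA, 0.07, 0.07 and 0.35. The part of B cells or plasma cells in the immunoglobulin reads was not tested.

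The wider B-lineage lists were read against the share of all genes called, 80.0%. Those called and highest in libraries 1, 2 and 3 were 25.3%, 23.3% and 31.4% of all genes. Of 18 B cell genes, 9 were detected and 18 were called, 13 of them highest in library 3, 5 in library 1 and none in library 2. Ralgps2, at 49.8 ± 6.17 TPM, and Cd72, a surface receptor, at 10.2 ± 1.31 TPM were among the highest of the list, and Fcer2a (CD23) and Cr2 (CD21) were among the lowest, at 0.413 and 0.353 TPM on average. Of 9 plasma cell genes, 6 were detected and 5 of 8 tested were called. Xbp1, Irf4 and Prdm1, at 145.6 ± 21.8, 27.9 ± 1.70 and 22.4 ± 8.65 TPM, led that list and are regulators that activated T cells also use. The B cell receptor signalling list had 6 of 7 genes called, 5 of them highest in library 1. Lyn, a kinase of this pathway, had 10.4, 3.74 and 4.27 TPM.

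Genes of recombination were near 0, and those of the germinal centre varied. Rag1, which cuts DNA at V, D and J segments, had 4, 0 and 2 reads, and Rag2 had 0, 0 and 6. Vpreb2, of the surrogate light chain, had 0 reads in all 3 libraries. Others listed with these genes had reads: Vpreb1 4, 7.02 and 3.09, Igll1 0, 0 and 6, and Dntt 15, 6 and 19. Rgs13, a germinal centre gene, had 0 reads, while Fas, the death receptor that activated lymphocytes carry, had 72.5 ± 13.2 TPM. Of the 7 genes in the recombination list only Il7r was detected, at 343 ± 123.6 TPM, and it is expressed by T cells as well.

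Receptors for antibody were measured too. Of 10 genes for Fc receptors and immunoglobulin transport, 6 were detected and all 7 tested were called, 5 of them highest in library 1, beside 80.0% of all genes called and 25.3% called and highest in library 1. Trim21, a cytosolic antibody receptor of many cell types, led with 78.4 ± 11.8 TPM, followed by Fcer1g at 34.1 ± 8.26, Fcgr3 at 14.5 ± 4.71, Fcgrt at 13.5 ± 1.68 and Fcgr2b at 9.47 ± 1.58. Pigr, Fcer1a and Fcamr were the lowest, at 0.113, 0.0633 and 0.0300 TPM on average. By scaled reads, Fcgr2b and Fcgrt were highest in library 3. The summed monocyte and macrophage markers were highest in library 1, though Cd14 was highest in library 2. Any link between these markers and the Fc receptor genes was not tested.

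Ratios between genes place the members among the T cell genes. All 12 pairs examined kept 1 sign in the 3 libraries with a mean above 2 SD, on the scale of log2 of (TPM + 1) ratios. Igkc exceeded Foxp3, the regulator that defines these cells, by 2.15 ± 0.0913, and the ratio of Ighm to Trbc2, a T cell receptor constant gene, was -3.37 ± 0.259. Ighm exceeded Cd79a by 4.64 ± 0.544. Igkc exceeded Cd79a by 5.61 ± 0.790 and Jchain by 5.09 ± 0.554, and Ighd exceeded Ms4a1 by 1.09 ± 0.293. Ighm exceeded Ighg2c by 3.03 ± 0.971 and Igha by 6.58 ± 2.29. Its ratio to Igkc was -0.97 ± 0.358. The second gene table of the authors leaves length undivided and has its high counts compressed. Taken from it, the ratios reversed for Igkc to Foxp3 (-1.39), Ighm to Trbc2 (1.96) and Ighm to Igkc (1.80). The cause of these reversals was not tested. In TPM the ratio of Igkc to Foxp3 was the steadiest, at 2.10, 2.09 and 2.25 in the 3 libraries.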

How the data were processed

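PolyA RNA-seq of activated regulatory T cells was deposited as 3 libraries, technical replicates of 1 biological replicate per the labels, sheared and of size range 100 to 300. Expected counts (estimated counts) as deposited by the authors are reads assigned to each gene or transcript, in the column layout of RSEM per the file headers, on mm10 with GENCODE M21. TPM and FPKM as deposited were scaled by the authors for length and library. The posterior SD of each count, deposited beside them by the authors, is on another scale and describes read assignment. A further gene table deposited by the authors holds whole-number counts on GENCODE M4 (107 of the 110 members), with high counts compressed, and served as an alternative only. For the aligner and the strandedness, the sources used here give nothing.

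Members and lists were chosen with earlier results of these data known. Gene reads were 30362256, 28419259 and 31959927, and a count of 0 allows up to 3 reads. Intervals are exact (Clopper-Pearson, 95%). Expected counts were rounded and tested by chi-square (2 degrees of freedom), with TMM-scaled library sizes from edgeR 4.0.16 in R 4.3.3, over genes averaging at least 10 reads, with Benjamini-Hochberg adjustment at 0.05. With 1 group no edgeR contrast could be fitted, and p-values set the spread between these libraries, whose source is not known, against counting error. The test was checked on data simulated with counting error and set folds, so the check does not cover other spread between libraries. Python 3.11.15, scipy 1.17.1 and pandas 2.3.3 were used, and DESeq2 1.42.0 gave alternative size factors.

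Named genes are all constant, J and D members, the 5 V members with most reads per locus, up to 3 on each side of the threshold, the 8 largest chi-squares, the genes of 12 pairs, and up to 5 highest and 3 lowest of each gene list. Some of them are not reported here but are included in the counts over lists and pairs. Other V segments named are the 5 most counted of a library, those shared by all libraries and the examples printed, chosen after their values were seen. The count of members with 90% or more of reads in 1 library and the count of shared segments were also chosen after seeing the data. Alternatives covered scaling, filters, pseudocounts (0.1), posterior means, FPKM, the smaller gene table and leaving out each library.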

Additional observations from a re-analysis of the deposited data

Results flagged for a closer look

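Immunoglobulin pseudogenes, which the report's comparisons do not use, held 120.4 reads summed over the 3 libraries, above the 3 reads per library that a count of 0 allows. They had 57.7 reads in library 1, 11.6 in library 2 and 51.1 in library 3, on 31 of 164 annotated pseudogenes. Ighv1-2 held 45.1 of the reads of library 1, with 2 and 1.42 in the others. Groups of 3 libraries are too small for a check of single outlying samples.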

How the results depend on the processing

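Across planned and added alternatives, 186 values that answer a comparison kept their call or stayed within the spread, 16 moved and 3 reversed. The count of members called stayed at 86 under DESeq2 size factors, total reads and posterior mean counts. Of all genes, these settings called 79.9%, 80.1% and 79.3%. In members averaging at least 50 reads it was 28 of 32, or 87.5%, close to the 87.1% of all genes called there. With that filter, which tests fewer genes, libraries 1, 2 and 3 were highest for 8, 15 and 9 members, and the median fold was 7.53. With a pseudocount of 0.1 the median fold was 16.8. Leaving out libraries 1, 2 and 3 in turn gave 68 of 77, 63 of 74 and 75 of 84 members called, beside 65.1%, 66.2% and 54.1% of all genes.

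The other gene table gave 1021 CPM to the members, 754 to heavy and 25.0 to lambda members, and a kappa share of 90.6%. It is not divided by length and its high counts are compressed. In it the ratios reversed for Ighm to Igkc (1.80), Igkc to Foxp3 (-1.39) and Ighm to Trbc2 (1.96). By transcript expected counts, the share without membrane exons was 6.71% for Ighd and 98.8% for Ighg1, and by posterior mean TPM it was 94.3% for Ighe and 98.9% for Ighg2c. The cause was not tested. V segments in all 3 libraries numbered 1 for heavy at 20 or more reads and 9 for kappa at 5 or more, both limits chosen after seeing the data.

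In single genes 221 values kept their call and 12 lost it. Ighm (adjusted p = 0.0785), Igkc (0.289) and Igkv6-23 (0.962) lost it in the other gene table. Losses without library 1 were Iglc1, Iglc2 and Igkv1-110 (adjusted p = 0.261). Without library 2 they were Ighm, Ighe (0.284), Ighv1-69 (0.565) and Igkv6-23 (0.818). Without library 3 they were Igkv4-59 (0.103) and Iglv2 (0.372). These p-values are from the chi-square test across all genes. No paired analysis was possible because the 3 libraries form 1 group.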
